A study of Mus musculus with 9 samples.

Results

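The transcripts described here are 8 noncoding host genes of small nucleolar RNAs (snoRNAs): Gas5, Zfas1, Snhg1, Snhg3, Snhg5, Snhg6, Snhg8 and Snhg12. The genes were chosen by name, as noncoding hosts with 5′-terminal oligopyrimidine (TOP) starts, with the signals of these 9 arrays already known. Their differences between groups are therefore given as a description. Calls from a statistical fit are counted for them below, but those calls are not taken as a test of the hosts. The hosts are 8 of the 18193 genes that a probe set with a single symbol represents on the array, and 17 such probe sets carry their symbols. All 8 genes and 16 of the 17 probe sets had a mean above the lower limit for testing, a signal of about 22.2. One Snhg5 probe set lay below it. RNA of the mouse line BC3H1, a muscle-like line from a brain tumour, was hybridised to 9 Affymetrix arrays in 3 groups of 3. The DMSO group were parental, rapamycin-sensitive BC3H1 cells given only solvent for 24 h. The sensitive rapamycin group were the same cells with 100 nM rapamycin for 24 h. The resistant group were RR1 cells, 1 line raised from BC3H1 by 6 months in 1 uM rapamycin and still held in 1 uM at harvest. Nothing in the labels shows that arrays of a group are independent cultures, so every p and SE reflects the spread of these arrays and may be technical. Dose and duration differ between both rapamycin groups, and line, selection and drug cannot be told apart in the resistant group.

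A snoRNA host is transcribed and spliced like an mRNA, and the snoRNAs are trimmed out of its introns. Box C/D snoRNAs then guide 2′-O-methylation, and box H/ACA snoRNAs pseudouridylation, of ribosomal and other RNAs. The spliced exons of these hosts encode no long protein. Many begin with a TOP tract, a C followed by pyrimidines, which places the translation of an RNA under control of mTOR complex 1, the kinase complex that rapamycin inhibits. Several spliced hosts, Gas5 and Zfas1 among them, are known to be engaged by ribosomes and then degraded by nonsense-mediated decay, a pathway that acts only on RNAs being translated. Gas5 takes its name, growth arrest-specific, from its accumulation in arrested cells.

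The sequences around the annotated starts are shown because the hosts were grouped as TOP transcripts. Each is the transcript strand, 5′ to 3′, the 40 bases before the annotated start and the 20 bases from it, from RefSeq on build GRCm38.p6, and capitals mark a C followed by at least 4 pyrimidines that begins within 10 bases of the start. Promoter entries matched 7 of the 8 hosts, and Gas5 has 2 annotated starts. Coordinates belong to RefSeq, since the array files name no genome build.
Gas5 (first start), chr1:161034561-161034620, plus strand: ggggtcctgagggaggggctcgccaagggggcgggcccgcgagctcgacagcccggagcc
Gas5 (second start), chr1:161035126-161035185, plus strand: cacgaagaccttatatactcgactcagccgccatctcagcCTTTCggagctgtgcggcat
Zfas1, chr2:167062894-167062953, plus strand: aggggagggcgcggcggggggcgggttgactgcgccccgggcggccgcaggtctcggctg
Snhg1, chr19:8723447-8723506, plus strand: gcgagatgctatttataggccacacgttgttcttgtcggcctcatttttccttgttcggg
Snhg3, chr4:132353667-132353726, minus strand: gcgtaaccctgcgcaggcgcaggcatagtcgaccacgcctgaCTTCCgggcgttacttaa
Snhg5, chr9:88522878-88522937, minus strand: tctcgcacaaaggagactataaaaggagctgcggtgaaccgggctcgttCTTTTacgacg
Snhg8, chr3:123508317-123508376, minus strand: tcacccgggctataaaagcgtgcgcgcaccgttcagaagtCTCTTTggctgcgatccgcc
Snhg12, chr4:132308638-132308697, plus strand: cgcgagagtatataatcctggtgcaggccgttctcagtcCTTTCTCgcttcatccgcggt

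A tract began exactly at the second Gas5 start and at the Snhg8 start, a placement found in 2.51% of 32851 RefSeq promoter entries searched the same way. The Snhg12 tract began 1 base before the annotated start and the Snhg3 tract 2 bases after it, and 8.96% of entries have a tract within 2 bases. In Snhg5 the tract began 9 bases downstream, and 30.7% of entries have a tract within 10 bases. No tract of these letters lay within 10 bases of the first Gas5 start or of the Zfas1 and Snhg1 starts. In Snhg1 a run of pyrimidines lies shortly after the annotated start. It was not marked, since no C in it is followed by at least 4 pyrimidines. TATAAA or TATATA, searched on the transcript strand between 40 and 20 bases before the start, was present upstream of the second Gas5 start, Snhg5, Snhg8 and Snhg12, against 2.74% of all entries. CACGTG, which reads the same on both strands, was in none of these hosts' 300-base entries and in 7.15% of all entries. These are matches of letters in a window and say nothing about use of a start in BC3H1 cells. By RefSeq, 8 snoRNA genes lie inside Gas5 and 8 inside Snhg1, 4 inside Snhg12, 3 inside Zfas1, 2 each inside Snhg3 and Snhg5, and 1 each inside Snhg6 and Snhg8. The arrays measured the host transcripts, and processed snoRNAs were not analysed here.

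After each array's scaling by the authors, the median signal was 66.0 on the third DMSO array and 33.3 to 44.2 on the other 8 arrays. Arrays of a group correlated over probe sets at 0.947 to 0.985 and arrays of different groups at 0.878 to 0.952. The 3′ minus 5′ difference of the Actb control probe sets was 0.15 to 0.22 (log2) on the sensitive arrays and 0.32 to 0.35 on the resistant arrays. That of the Gapdh control probe sets overlapped, at -0.41 to -0.30 on the sensitive arrays and -0.33 to -0.25 on the resistant arrays. Of 7 muscle markers 6 passed the lower limit, and their summed signal was 20459 to 27860 in DMSO, 25949 to 26093 in sensitive cells with rapamycin and 7895 to 9670 in resistant cells. Acta2 and Tagln made up most of that sum. Chrna1, the muscle acetylcholine receptor subunit, averaged 529 in DMSO and 15.1 in resistant cells, while Myog, a myogenic transcription factor, went the other way, from 6.50 in DMSO to 17.8 with rapamycin and 98.9 in resistant cells. Myod1, another such factor, averaged 22.9, 23.8 and 18.8 in these groups and did not pass the limit, which was set on the mean over all 9 arrays. The 12 markers of neurons, glia, blood, endothelium and epithelium summed to 338 to 1112 in DMSO, 427 to 453 with rapamycin and 337 to 404 in resistant cells, and 6 of them lay below the limit. The part of RNA quality and of the differing muscle markers in the resistant group's host signals was not tested, and in bulk RNA a change in the share of cells cannot be told apart from a change in RNA per cell.

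All 8 hosts were brightest in the resistant cells, where every array of the representative probe set of each gene exceeded all 6 sensitive arrays. The share of all tested genes with such a separation was not computed, so nothing is read from it. By that probe set, the one with the highest mean, the resistant minus DMSO difference in log2(signal + 16) ran from 1.18 for Snhg8 to 2.77 for Zfas1, with a median of 1.75 over the 8 genes and -0.07 over all 12715 tested genes. In sensitive cells 24 h of rapamycin separated the hosts: the difference ran from -0.40 for Snhg3 to 1.72 for Zfas1, with a median of 0.37 against 0.03 over all tested genes. In resistant minus sensitive rapamycin cells the median was 1.4 against -0.08. Under limma with Benjamini-Hochberg adjustment, 15 of the 16 tested host probe sets were called higher and 0 lower in resistant against DMSO cells (15 and 0 at an unadjusted p under 0.05), where 21.7% of all 27022 tested probe sets were called higher and 22.0% lower. The counts against sensitive rapamycin cells were also 15 and 0 (15 and 0 unadjusted), beside 21.9% and 25.8% of all probe sets. After rapamycin in sensitive cells 5 were called higher and 3 lower, beside 16% and 12.0% of all probe sets. The genes were proposed with these contrasts in view, so nothing is read from the counts.

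**Figure D1:**
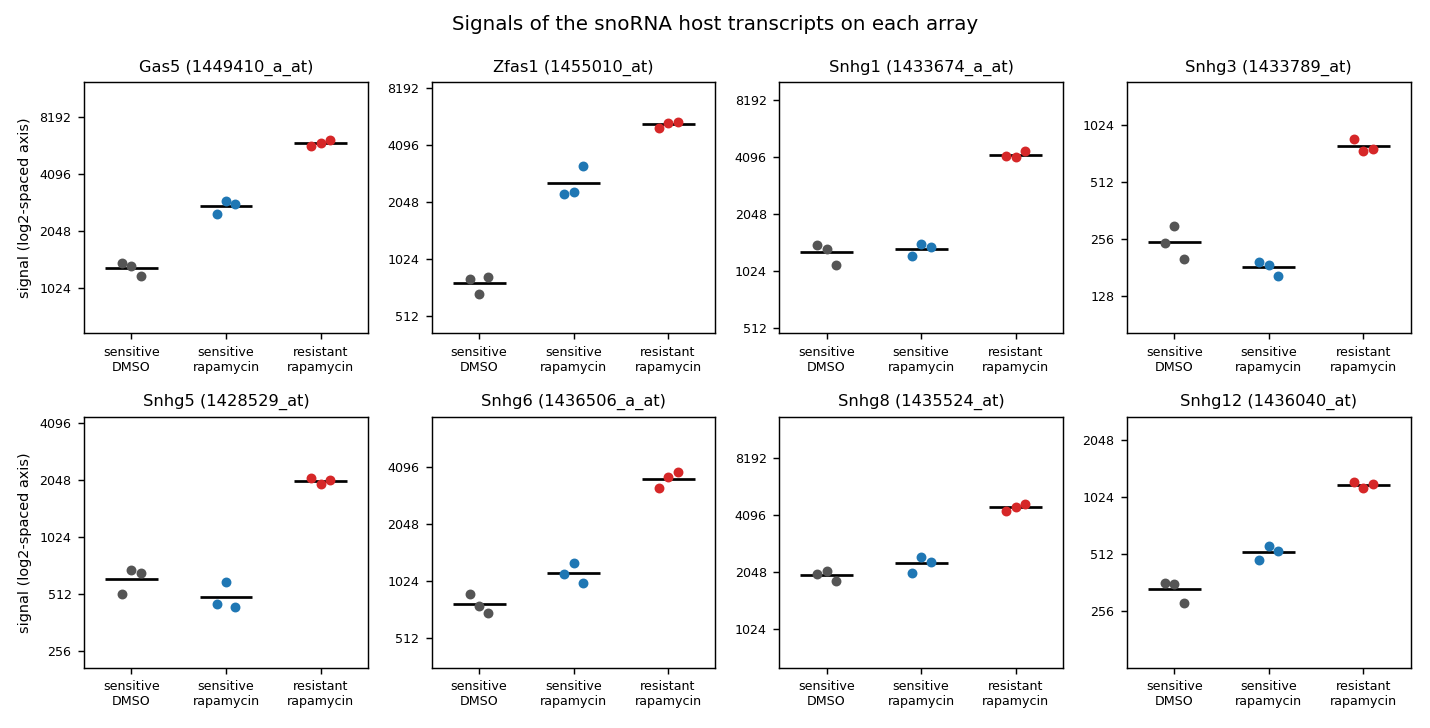
Signal of each host's brightest probe set on every array (dots, log2-spaced axis, all panels spanning the same fold range) with the group mean (line), for DMSO, sensitive rapamycin and resistant cells. The resistant dots lie above all others in each panel, while the sensitive rapamycin dots lie above the DMSO dots for Gas5, Zfas1, Snhg6 and Snhg12, overlap them for Snhg1, Snhg5 and Snhg8, and lie below them for Snhg3.

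Gas5 and Zfas1 showed the widest steps among the hosts after 24 h of rapamycin. Gas5 probe set 1449410_a_at read 1388, 1337 and 1197 in the 3 DMSO arrays, 2520, 2977 and 2841 with rapamycin, and 5808, 6031 and 6237 in resistant cells. The 3 groups did not overlap, and their means were 1308 ± 99.0, 2779 ± 235 and 6026 ± 214 (SD, n = 3). The log2 difference was 1.08 ± 0.08 (SE) after rapamycin, 2.19 ± 0.08 in resistant against DMSO cells and 1.11 ± 0.08 in resistant against sensitive rapamycin cells.

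A second Gas5 probe set, 1419291_x_at, gave the same order with wider steps. It read 570, 673 and 698 in DMSO, 1898, 1952 and 2182 with rapamycin, and 5451, 5876 and 5358 in resistant cells. The suffix x marks probe sets in which some probes can also match other transcripts. Its group means stood in a ratio of 3.11 after rapamycin and 8.60 in resistant cells relative to DMSO, or 1.62 ± 0.09 and 3.08 ± 0.09 on the log2(signal + 16) scale. Of all tested probe sets 0.292% had a larger positive difference after rapamycin and 0.0555% in resistant cells.

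The other Gas5 probe sets showed the resistant step without the rapamycin step. Probe set 1424843_a_at read 166, 158 and 113 in DMSO, 182, 164 and 124 with rapamycin, and 509, 539 and 585 in resistant cells. The DMSO and sensitive rapamycin arrays overlapped, with a difference of 0.09 ± 0.16, while the resistant arrays lay 1.81 ± 0.16 above DMSO. Probe set 1436222_at read 103, 136 and 143, then 163, 112 and 126, then 430, 385 and 474, with differences of 0.06 ± 0.17 and 1.64 ± 0.17 relative to DMSO. A further probe set, 1455904_at, carries both the Snord47 and Gas5 symbols and so falls outside the rule. It behaved like these, at -0.13 ± 0.15 after rapamycin and 1.89 ± 0.15 in resistant cells. Gas5 probe sets therefore disagreed on the 24 h comparison and had the same sign in the resistant line, and which transcript forms each one reads was not analysed here.

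**Figure D2:**
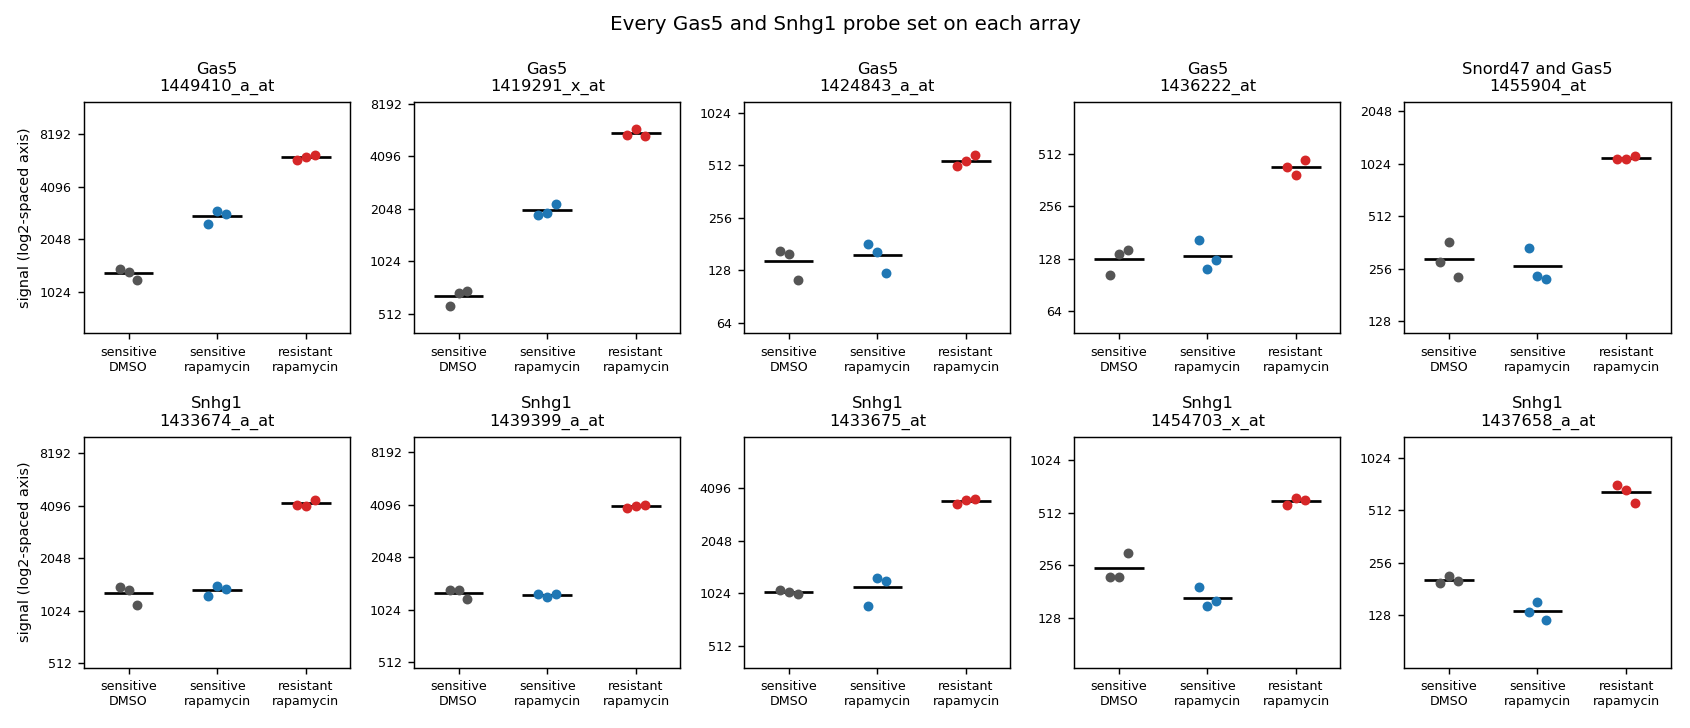
Signal of every Gas5 probe set (upper row, the last one shared with Snord47) and every Snhg1 probe set (lower row) on each array, with group means as lines on a log2-spaced axis. The first 2 Gas5 panels step up from group to group, and the other panels of that row step up only in the resistant cells; in the lower row 1454703_x_at and 1437658_a_at are lowest in the sensitive rapamycin cells.

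Zfas1 is named as the antisense transcript of Znfx1, whose start it overlaps. Its only probe set, 1455010_at, read 802, 675 and 830 in DMSO, 2273, 2316 and 3190 with rapamycin, and 5074, 5384 and 5463 in resistant cells. No arrays of different groups overlapped, although the third sensitive rapamycin array lay well above the other 2 of its group. Means were 769 ± 82.5, 2593 ± 518 and 5307 ± 206 (SD, n = 3), and the log2 differences were 1.72 ± 0.11 after rapamycin, 2.77 ± 0.11 in resistant cells and 1.05 ± 0.11 between the rapamycin groups. Of all tested probe sets 0.155% had a larger positive difference after rapamycin, 0.0962% in resistant against DMSO cells and 8.32% in resistant against sensitive rapamycin cells.

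Snhg6 and Snhg12 took smaller steps in the same order. Snhg6, the host of Snord87, read 866, 755 and 691 in DMSO, 1106, 1276 and 995 with rapamycin, and 3157, 3629 and 3850 in resistant cells. Its groups did not overlap, and its differences were 0.54 ± 0.10 after rapamycin, 2.18 ± 0.10 in resistant against DMSO cells and 1.64 ± 0.10 between the rapamycin groups. The step between the rapamycin groups was the wider one. Snhg12, which holds Snora16a, Snora44, Snora61 and Snord99, read 359, 357 and 282, then 478, 564 and 531, then 1232, 1140 and 1201. Its groups also stood apart in that order, at 0.64 ± 0.10 after rapamycin, 1.80 ± 0.10 in resistant cells and 1.16 ± 0.10 between the rapamycin groups.

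Snhg1 and Snhg8 were near their DMSO level after 24 h of rapamycin and higher in the resistant line. Snhg1, the host of Snord22 and of further box C/D snoRNAs, is read by 5 probe sets. The representative one, 1433674_a_at, read 1400, 1347 and 1109 in DMSO, 1236, 1416 and 1366 with rapamycin, and 4141, 4096 and 4420 in resistant cells. The sensitive groups overlapped at 0.06 ± 0.09, and the resistant arrays lay 1.71 ± 0.09 above DMSO. Probe sets 1433675_at and 1439399_a_at differed by 0.07 ± 0.11 and -0.04 ± 0.07 after rapamycin, and by 1.72 ± 0.11 and 1.64 ± 0.07 in resistant cells.

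The remaining Snhg1 probe sets were lower with rapamycin. Probe set 1437658_a_at read 197, 216 and 201 in DMSO, 133, 152 and 121 with rapamycin, and 717, 671 and 567 in resistant cells, with differences of -0.55 ± 0.13 and 1.59 ± 0.13 from DMSO. Probe set 1454703_x_at, whose probes may match other transcripts, gave -0.52 ± 0.14 and 1.24 ± 0.14. In both, the sensitive groups did not overlap. For 1433674_a_at the sign of the small rapamycin difference turned when the third DMSO array was left out (-0.04), and 1433675_at was called higher when the first sensitive rapamycin array was left out (0.23).

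Snhg8, the host of Snora24, had the narrowest resistant step of the 8. It read 2004, 2061 and 1842 in DMSO, 2030, 2455 and 2324 with rapamycin, and 4271, 4523 and 4665 in resistant cells. The sensitive groups overlapped at 0.20 ± 0.08, a difference called higher without the first sensitive rapamycin array (0.28) and under quantile normalization (0.20). The resistant arrays lay 1.18 ± 0.08 above DMSO and 0.98 ± 0.08 above sensitive rapamycin cells. A probe set shared by Snora24 and Snhg8, 1447896_s_at, lies outside the rule and gave 0.29 ± 0.08, 0.98 ± 0.08 and 0.69 ± 0.08 in these comparisons.

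Snhg3 and Snhg5 had lower means with rapamycin in sensitive cells and higher ones in resistant cells. Snhg3, the host of the H/ACA snoRNAs Snora73a and Snora73b, read 242, 298 and 200 in DMSO, 193, 186 and 162 with rapamycin, and 858, 744 and 764 in resistant cells. The gap between the lowest DMSO and the highest sensitive rapamycin array was narrow, and the difference was -0.40 ± 0.14. That difference was no longer called without the first (-0.41) or second (-0.27) DMSO array, the second (-0.43) or the third (-0.33) sensitive rapamycin array or the third resistant array (-0.40), or without the mean-variance trend (-0.40). The resistant arrays lay 1.63 ± 0.14 above DMSO and 2.04 ± 0.14 above sensitive rapamycin cells.

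Snhg5, the host of box C/D snoRNAs of the U50 family, read 508, 683 and 654 in DMSO, 452, 592 and 435 with rapamycin, and 2092, 1944 and 2039 in resistant cells (1428529_at). The sensitive groups overlapped, and the difference of -0.31 ± 0.12 was called lower only without the first DMSO (-0.44) or second sensitive rapamycin (-0.45) array, with arrays centred on their 75th percentile (-0.35), and with the stricter filter or the replicate block (both -0.31). The resistant arrays lay 1.70 ± 0.12 above DMSO and 2.02 ± 0.12 above sensitive rapamycin cells. Both other Snhg5 probe sets were dim. Of these, 1432738_at read 21.7 to 124 in DMSO, 29.6 to 52.0 with rapamycin and 35.1 to 51.2 in resistant cells, all overlapping, and differed from DMSO by -0.37 ± 0.41 and -0.29 ± 0.41. Without the third DMSO array, which held the 124, these became 0.12 and 0.20. The probe set below the limit, 1432737_at, read 3.81 to 84.1 over all 9 arrays and was not tested.

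**Figure D3:**
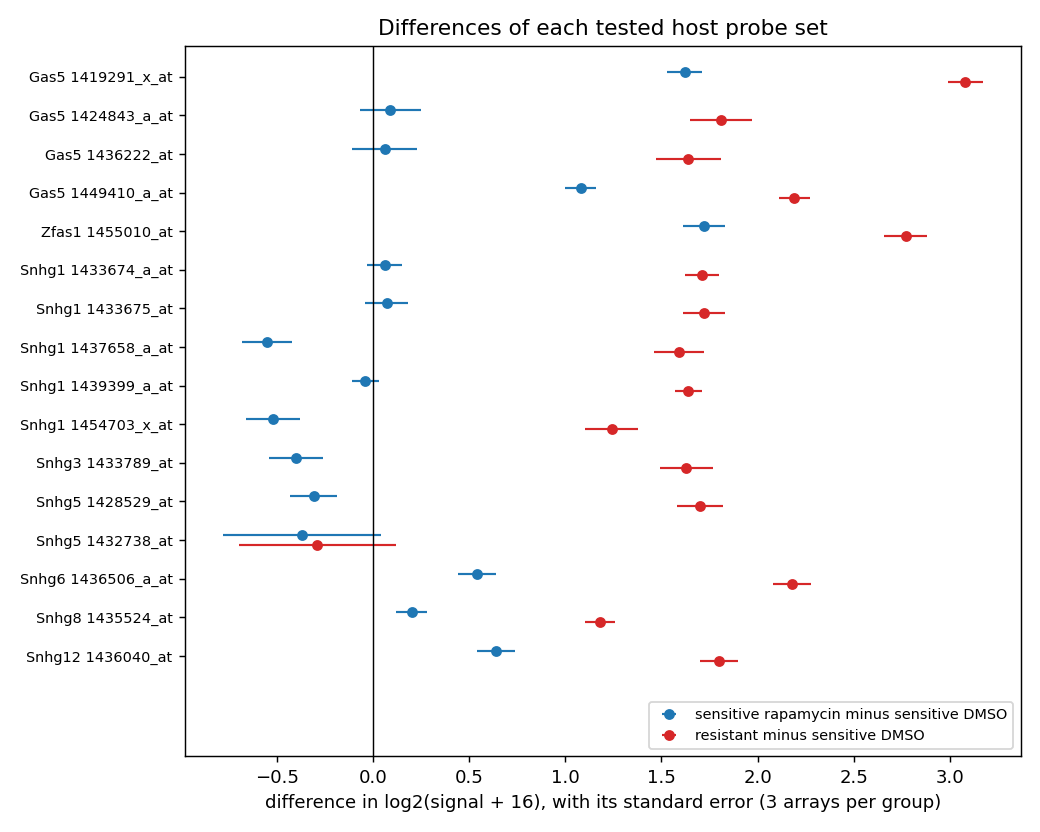
Difference in log2(signal + 16) from DMSO cells for each of the 16 tested host probe sets, with its SE (3 arrays per group), in sensitive rapamycin cells (blue) and resistant cells (red). The blue points spread from -0.55 to 1.72 around 0, and 15 of the 16 red points lie between 1.18 and 3.08, the exception being the dim Snhg5 probe set 1432738_at.

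The order of the groups thus fell into a few forms by representative probe set. DMSO, sensitive rapamycin and resistant cells stood in that order without overlap, from lowest to highest, for Gas5, Zfas1, Snhg6 and Snhg12. For Gas5 this holds for 1449410_a_at and 1419291_x_at, while in 1424843_a_at and 1436222_at the sensitive groups overlapped. How many of all tested genes show this order was not computed. The lower 2 groups overlapped for Snhg1, Snhg5 and Snhg8, and for Snhg3 the sensitive rapamycin arrays were lowest. Of the hosts that stepped up with rapamycin, Snhg12 and the second Gas5 start have a tract in the printed window. Zfas1 and the first Gas5 start have none, and no start was printed for Snhg6. Of those that overlapped, Snhg5 and Snhg8 have a tract and Snhg1 has none by the letters searched, only an unmarked pyrimidine run. Snhg3, with the sensitive rapamycin arrays lowest, has a tract. With 8 hosts this is a description only, and a relation between form and tract was not tested.

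For each host, the 3 other genes most similar in course to its representative probe set were taken by Pearson r. This was computed on log2(signal + 16) over the 9 arrays, among 4147 candidates with a group span of at least 0.5. For Gas5 that probe set was 1449410_a_at, while 1424843_a_at and 1436222_at lacked its rapamycin step. The 9 points fall into 3 groups, so r mainly reflects the order and spacing of the group means. Gas5 was most like Pim3, a serine/threonine kinase (r = 0.997), Mgat4b (0.996) and Atpif1, the mitochondrial ATP synthase inhibitor (0.994). Zfas1 was most like Ttc33 (0.991), Smim13 (0.989) and Ptov1 (0.988). These courses are of like shape and smaller size: Pim3 differed by 0.44 after rapamycin and 0.92 in resistant cells. Snhg1 was most like Cetn3, Ppdpf and Nadk2, Snhg6 like Kdm1a, Pcnp and Ube3a, Snhg8 like Hmgcs1, Park7 and Tomm7, and Snhg12 like Ndufaf8, Phpt1 and Eif3k. The 3 nearest to Snhg3 were Exosc10, a nuclear exosome subunit (0.995), Ppp5c (0.994) and Trub1, a pseudouridine synthase (0.992). The 3 nearest to Snhg5 were Ppan, a ribosome assembly factor that is itself a snoRNA host (0.994), Ints11 (0.994) and Bola2 (0.993).

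Other noncoding snoRNA hosts are outside the rule that named the 8, although this list, like the others below, was drawn up with earlier results of these arrays known. Of 16 listed, 11 had a probe set with a single symbol and 9 were above the limit. The list also holds Meg3 and Mir17hg, the latter named as a microRNA host, and whether snoRNAs lie inside the listed genes was not checked. Meg3 is among the 9, dim and not called in any comparison. After rapamycin 2 of the 9 were called higher and 1 lower, where 19.2% of all tested genes were called higher and 14.5% lower. Snhg7 read 121, 104 and 129 in DMSO, 234, 290 and 255 with rapamycin, and 386, 387 and 408 in resistant cells. It rose by 1.04 ± 0.13 with rapamycin (limma adjusted p = 1.37e-05) and was 1.62 ± 0.13 higher in resistant cells (adjusted p = 3.19e-08), a course in the same order as Gas5. Dancr, a host known as a regulator of differentiation, rose by 0.57 ± 0.13 (adjusted p = 0.00253) and was 2.03 ± 0.13 higher in resistant cells (adjusted p = 1.2e-09). Snhg4 took the other course and fell by 0.37 with rapamycin (SE 0.08, adjusted p = 0.00209), while resistant cells were 0.34 ± 0.08 above DMSO (adjusted p = 0.00248).

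In resistant against DMSO cells 5 of these 9 listed genes were higher and 0 lower by limma (5 and 0 at an unadjusted p under 0.05), beside 25.5% and 25.3% of all tested genes. Besides Snhg7, Dancr and Snhg4, the higher ones were Snhg16 at 1.29 ± 0.11 (adjusted p = 6.3e-08) and Snhg17 at 1.13 ± 0.17 (adjusted p = 2.53e-05). Against sensitive rapamycin cells 6 were higher and 1 lower, beside 25.9% and 29.9% of all genes. The lower one was the dim Snhg14, at -0.72 ± 0.28 (limma adjusted p = 0.0396), a call lost without the first or the third sensitive rapamycin array or without any 1 of the 3 resistant arrays. The medians of the 9 were 0.10, 0.34 and 0.58 in the 3 comparisons, against 0.37, 1.75 and 1.4 for the 8 hosts. The 0.10 is the value of the dim Meg3 (0.10 ± 0.42). Snhg11, Snhg14 and Meg3 had group means of only 24.2 to 85.6, where this scale understates differences, while the representative probe sets of the 8 hosts were brighter. The difference between these lists was not tested.

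Protein-coding hosts carry snoRNAs in the introns of genes for ribosomal proteins, translation factors and nucleolar proteins. Of 49 listed, 34 were tested. With rapamycin 3 rose and 9 fell, beside 19.2% of all tested genes called higher and 14.5% lower, and the median was 0.09 against 0.03 over all genes (5 rose without the second DMSO array). In resistant cells 24 were higher and 0 lower than in DMSO (28 and 0 at an unadjusted p under 0.05), beside 25.5% and 25.3% of all genes, with a median of 0.49, although quantile normalization called 4 lower. Against sensitive rapamycin cells 21 were higher and 2 lower, beside 25.9% and 29.9% of all genes, with 1 lower without the first sensitive rapamycin, first resistant or the third resistant array. The largest falls with rapamycin were Rcc1, the nucleotide exchange factor of Ran (-1.49 ± 0.21), Dkc1 (-1.25 ± 0.08), Nop58 (-1.19 ± 0.07) and Nop56 (-1.11 ± 0.08). In resistant against DMSO cells the largest were Ppan (1.90 ± 0.14), the ribosomal protein gene Rpl12 (1.46 ± 0.16), Nop56 (1.35 ± 0.08) and Rcc1 (1.19 ± 0.21). The Rpl12 probe set read only 390 in DMSO and 1086 in resistant cells. Rpl27a, of like brightness at 331 in DMSO, stood at -0.10. The other tested ribosomal protein genes of the list read 13077 to 17215 in DMSO and stood at 0.01 to 0.50. Which transcript the Rpl12 probe set reads was not analysed.

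Transcripts for the proteins that clothe and assemble snoRNAs mostly fell with rapamycin and were mostly higher in the resistant line. Of 22 listed snoRNP proteins and assembly factors 21 were tested. With rapamycin 14 fell and 2 rose, where 14.5% of all tested genes were called lower and 19.2% higher, and the median was -0.49. In resistant cells 17 were higher and 0 lower than DMSO by limma (17 and 0 unadjusted), with a median of 0.92, beside 25.5% and 25.3% of all genes. Against sensitive rapamycin cells 19 were higher and 0 lower (20 and 0 unadjusted), with a median of 1.48, beside 25.9% and 29.9%. Dkc1, the pseudouridine synthase of box H/ACA particles, went from 1488 ± 38.4 in DMSO to 617 ± 45.9 with rapamycin and 2554 ± 149 in resistant cells (SD, n = 3). Its fall with rapamycin had a limma adjusted p of 2.45e-09. Nop58, a core box C/D protein, went from 1124 ± 21.9 to 485 ± 9.23 and 2192 ± 94.5, and Nhp2, a core H/ACA protein, from 4668 ± 459 to 2075 ± 24.8 and 8845 ± 265. In resistant against DMSO cells the largest differences were Nolc1, a nucleolar chaperone of snoRNPs (1.71 ± 0.10), the assembly ATPase Ruvbl2 (1.71 ± 0.10), the H/ACA assembly factor Shq1 (1.39 ± 0.35) and Nop56 (1.35 ± 0.08). Dkc1, Nop56 and Nop58 stand in both this list and the protein-coding hosts.

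Factors of nonsense-mediated decay, which degrades several of these hosts, showed no single direction. Of 22 listed 16 were tested. With rapamycin 3 rose and 4 fell, with a median of -0.10, where 19.2% of all tested genes were called higher and 14.5% lower, so the share that rose was near that of all genes. In resistant against DMSO cells 8 were higher and 2 lower, with a median of 0.28, beside 25.5% and 25.3% of all genes. Rnps1, a splicing-dependent factor, fell by 0.72 with rapamycin (SE 0.08), as did the factors Smg5 by 0.59 (SE 0.10) and Rbm8a, of the exon junction complex, by 0.57 (SE 0.09). The exonuclease Xrn1 rose by 0.78 ± 0.27 (limma adjusted p = 0.0375). The other rises, given although outside the naming rule, were the endonuclease Smg6 by 0.50 ± 0.17 (adjusted p = 0.0416) and Smg1 by 0.45 ± 0.14 (adjusted p = 0.0204). The 3 rises became 0 without the first DMSO array and 1 without the second DMSO or the first or second sensitive rapamycin array. In resistant against DMSO cells the termination factor Gspt1 was higher by 0.75 ± 0.09 and the helicase Dhx34 lower at -0.55 ± 0.18 (limma adjusted p = 0.0191). The 8 higher became 4 without the first resistant array. The 2 lower became 1 without any 1 of the DMSO arrays or the second resistant array and 0 without the third resistant array. Against sensitive rapamycin cells 7 were higher and 3 lower, beside 25.9% and 29.9% of all genes, and the 3 lower became 1 without the first sensitive rapamycin or second resistant array and 0 without the second sensitive rapamycin array. The central helicase Upf1 was not called in any comparison, at -0.00 ± 0.21, 0.43 ± 0.21 and 0.43 ± 0.21; it was named after its values were seen.

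All 8 listed genes for TOP mRNA binding and cap binding were tested. With rapamycin 5 fell and 0 rose (limma; 5 and 1 at an unadjusted p under 0.05), with a median of -0.30, beside 14.5% of all tested genes called lower and 19.2% higher, and 1 rose without the second DMSO array. In resistant cells 7 were higher and 0 lower than in DMSO (7 and 0 unadjusted), with a median of 0.45, beside 25.5% and 25.3% of all genes. Against sensitive rapamycin cells the counts were also 7 and 0 (7 and 0 unadjusted), with a median of 0.77, beside 25.9% and 29.9%. Larp1, which binds the cap and TOP tract and represses translation of TOP mRNAs when mTOR complex 1 is inactive, fell by 0.33 with rapamycin (SE 0.07, adjusted p = 0.00286) and was 0.52 ± 0.07 higher in resistant cells (adjusted p = 2.1e-05). Eif4ebp1, a repressor of the cap-binding protein, fell by 0.71 (SE 0.09), and Eif4e, that cap-binding protein, by 0.55 (SE 0.09). In resistant cells the poly(A) RNA binding proteins Larp4 (1.19 ± 0.09) and Larp4b (0.77 ± 0.08) were highest above DMSO.

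**Figure D4:**
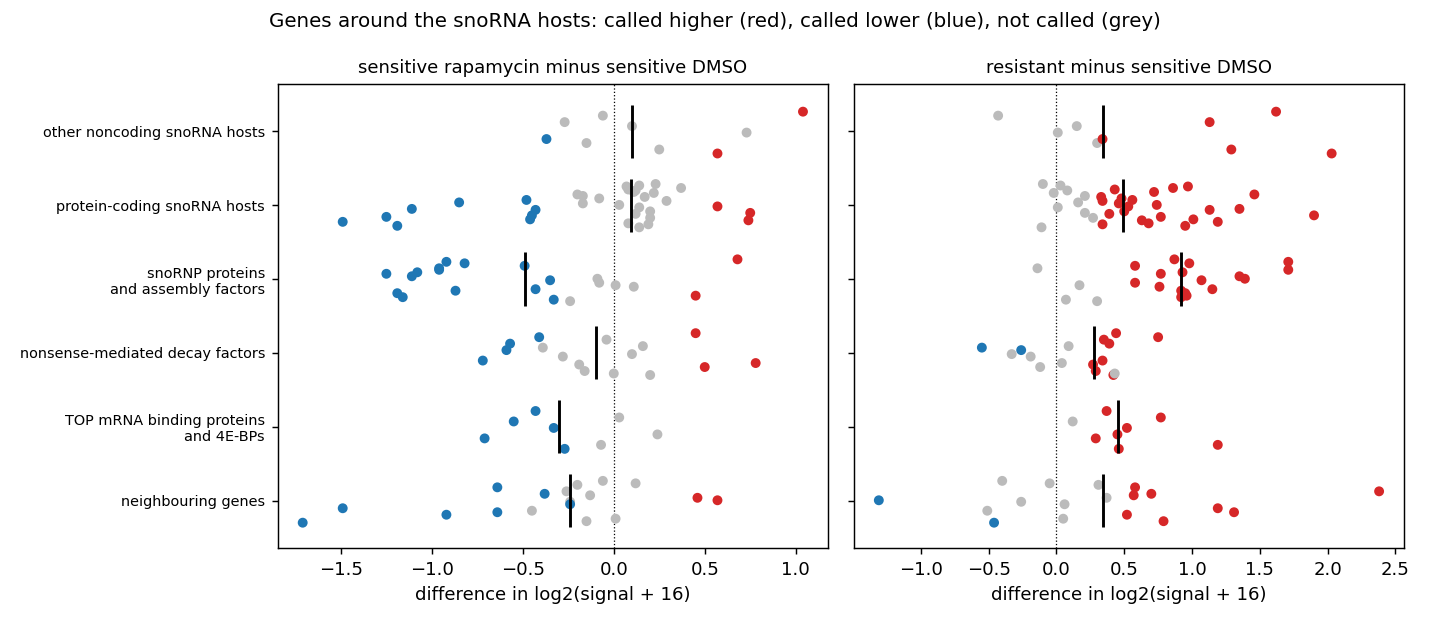
Difference in log2(signal + 16) from DMSO cells for every tested gene of 5 lists and for the 18 tested neighbours of the hosts, in sensitive rapamycin cells (left) and resistant cells (right). Red and blue dots are genes called higher and lower by limma, grey dots are not called, and black bars are list medians; the snoRNP median lies at -0.49 on the left and 0.92 on the right.

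Genes next to the hosts on the chromosome, or overlapping them, were not used in choosing the hosts. Of 18 tested neighbours 2 were higher and 7 lower with rapamycin, where 19.2% of all tested genes were called higher and 14.5% lower. In resistant against DMSO cells 8 were higher and 2 lower, beside 25.5% and 25.3%, and against sensitive rapamycin cells 10 and 1, beside 25.9% and 29.9%. Znfx1, the helicase-like gene that Zfas1 overlaps, differed in sign from Zfas1 in the resistant line. It went from 257 ± 26.3 in DMSO to 386 ± 16.3 with rapamycin (0.57 ± 0.14, limma adjusted p = 0.00504) and to 94.3 ± 10.8 in resistant cells (-1.31 ± 0.14, adjusted p = 6.65e-07), where Zfas1 stood at 2.77. On its other sides Ddx27, a nucleolar helicase, fell by 0.64 with rapamycin (SE 0.09) and was 1.31 ± 0.09 higher in resistant cells. That resistant difference was 1.25 to 1.35 when single arrays were left out, but as low as 0.4, still called, under another processing alternative. Ptgis, the prostacyclin synthase, stood at -0.26 ± 0.15 and 2.38 ± 0.15.

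Around Gas5, the kinetochore gene Cenpl fell by 1.71 with rapamycin (SE 0.18, adjusted p = 1.54e-06 by limma), opposite in sign to 1449410_a_at. In resistant cells Cenpl was lower than in DMSO at -0.46 ± 0.18 (limma adjusted p = 0.0472), a call lost without the second DMSO (-0.33), the third sensitive rapamycin (-0.46) or any 1 of the resistant arrays (-0.32 to -0.54). The overlapping Zbtb37 and the adjacent Serpinc1 were dim and not called in any comparison, at -0.45 ± 0.44 and -0.06 ± 0.34 with rapamycin and -0.51 ± 0.44 and -0.40 ± 0.34 in resistant cells.

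The neighbours of Snhg1 and Snhg3 included genes that fell with rapamycin and were higher in the resistant line. Slc3a2, the heavy chain of amino acid transporters, fell by 0.92 (SE 0.09) and was 0.52 ± 0.09 above DMSO in resistant cells, and Wdr74, a ribosome assembly factor, fell by 0.38 (SE 0.08) and was 0.70 ± 0.08 above. Snhg1 between them stood at 0.06 and 1.71. Rcc1 beside Snhg3 fell by 1.49 (SE 0.21) and was 1.19 ± 0.21 above DMSO, with Snhg3 at -0.40 and 1.63, while Phactr4 on the other side was not called at -0.24 ± 0.14 and -0.26 ± 0.14.

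Beside Snhg5, the RNA-binding gene Syncrip fell by 0.64 with rapamycin (SE 0.08) and was 0.58 ± 0.08 higher in resistant cells. Zfp949 was not called, at 0.12 ± 0.20 and -0.05 ± 0.20. Beside Snhg6, the kinase Sgk3 was higher with rapamycin at 0.46 ± 0.15 (limma adjusted p = 0.033), a call lost on leaving out any 1 of the sensitive arrays (0.38 to 0.50) but the third DMSO array (0.51). In resistant cells Sgk3 stood at 0.37 ± 0.15, or -0.26 by the mean of its probe sets. The COP9 signalosome subunit Cops5 stood at -0.13 ± 0.11 and was 0.57 ± 0.11 higher in resistant cells; without the third DMSO array it was called lower with rapamycin (-0.25).

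Beside Snhg12, the transcription factor subunit Taf12 was lower with rapamycin at -0.24 ± 0.09 (limma adjusted p = 0.0439), a call lost on leaving out any 1 of 8 arrays (-0.21 to -0.26) and kept without the third DMSO array, and stood at 0.06 ± 0.09 in resistant cells. Trnau1ap, a selenocysteine tRNA factor, stood at -0.15 ± 0.09 with rapamycin and was 0.79 ± 0.09 higher in resistant cells, beside 0.64 and 1.80 for Snhg12. The neighbours of Snhg8, Prss12 and Ndst3, were dim and not called in any comparison, at 0.01 ± 0.46 and -0.20 ± 0.39 with rapamycin and 0.05 ± 0.46 and 0.31 ± 0.39 in resistant cells.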

How the data were processed

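Total RNA of 3 groups of 3 arrays was measured on the Affymetrix Mouse 430 2.0 platform. The deposited values are linear intensities (signals), 1 for each probe set and array, made with GCOS 1.4 per the submitters' processing notes; how a probe set was summarised is not given in the sources used here. The deposited columns all have a trimmed mean of 250 after dropping 2% at either end, and the values were kept on that scale. Of 45101 probe sets, 64 were controls, 34945 had 1 symbol in the platform annotation, 932 several and 9160 none here.

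Values were fitted as log2(signal + 16) with limma 3.58.1 in R 4.3.3 (lmFit, eBayes with trend) over all 9 arrays, for 27022 probe sets whose mean log2 value exceeded the 40th percentile. A probe set was called in a comparison at an adjusted p (Benjamini-Hochberg, over all 27022) under 0.05. A gene was its probe set of 1 symbol with the highest mean. Differences carry their SE, signals the SD of 3 arrays. This scale understates differences of dim probe sets. The number of arrays limits the precision.

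The hosts, the 5 gene lists and the rules were chosen with earlier results of these data known. Named were every host probe set, up to 4 called members of a list and comparison with the largest difference, every tested neighbour in RefSeq gene order (or overlapping gene), and the 3 genes most like each host, leaving out clone and predicted names. Arrays with the same replicate number did not deviate together (r = -0.08 to 0.01 over 9 pairs), so the numbers were not taken as pairs. Alternatives changed the pseudocount, filter, scaling, variance trend, block, gene summary and arrays used. Detection calls and scan batches were not used here.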

Additional observations from a re-analysis of the deposited data

How the results depend on the processing

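No difference of a host reversed as a called value. Of 813 recomputed values for 48 host differences, 796 counted as the same. These kept call and direction, or were uncalled and changed sign by less than the SE. Another 6 lost the call (all Snhg3 with rapamycin) and 8 gained one (Snhg5, Snhg8 and an Snhg1 probe set with rapamycin). The remaining 3 were uncalled and changed sign by more. By the same rule 919 of 960 neighbour values counted as the same, 28 lost the call and 7 gained one. Host probe sets called higher in resistant against DMSO cells were 15 under every alternative run. Because the hosts were chosen with these values known, that steadiness is no support for a difference. Scaling moved the median of all probe sets: for resistant against DMSO cells it was -0.05 as deposited, 0.04 with arrays centred on their 75th percentile and 0.07 with quantile normalization, and against sensitive rapamycin cells -0.08, 0.05 and 0.04.

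Genes of the 5 lists called lower in resistant against DMSO cells were 2 and became 1 without a filter, with centring on the 75th percentile, with the replicate block and with probe sets averaged per gene. They became 6 with quantile normalization and 0 without the variance trend, and ranged from 0 to 2 when single arrays were left out. Against sensitive rapamycin cells 6 became 2 with centring on the 75th percentile and ranged from 2 to 7 when single arrays were left out. In both cases the cause was not tested. Among the single lists, decay factors called higher went from 3 to 1 with rapamycin and from 8 to 5 in resistant against DMSO cells without the variance trend, and from 8 to 5 with probe sets averaged, which also left 1 of 2 snoRNP genes higher with rapamycin. Protein-coding hosts called lower against sensitive rapamycin cells went from 2 to 4 with quantile normalization and to 1 with centring or without the trend, and decay factors from 3 to 0 with quantile normalization and to 1 with centring. The 1 other noncoding host called lower there, Snhg14, was lost under both scalings, without a filter, with a stricter one and with the block. With the replicate block the host probe sets called higher after rapamycin were 5 and those called lower 4 in place of 3, the added one being Snhg5 (-0.31). For dim probe sets such as those of Prss12 the SE reached 0.46, and with 3 arrays a group a difference had to be well above its SE to be called. The dim Snhg14, for example, was not called with rapamycin in sensitive cells at 0.73 ± 0.28 (limma adjusted p = 0.0582).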
